A study of Mus musculus with 2 samples.

Results

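The Kcnq1 imprinted domain is the stretch of distal mouse chromosome 7 that holds Cd81, Tssc4, Kcnq1, Kcnq1ot1, Cdkn1c, Slc22a18 and Phlda2. These 7 genes were taken by name, and the stretch studied ran from the first to the last of them with 50 kb added on each side, chr7:150188644-150738446 of mm9, 549.803 kb in all. The 7 are among 37274 gene starts examined, and the stretch held 18 of the 33788 CTCF peaks that the authors deposited, a peak being counted by its summit.

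CTCF binding was profiled by ChIP-seq in R1/E mouse ESCs that carried, beside their own CTCF genes, a stably integrated BAC with CTCF fused at its C-terminus to the LAP tag, which contains GFP. Resistant clones had been sorted for GFP-positive cells, and the BAC supplies tagged CTCF in addition to the cells' untagged protein. Cells grown with LIF and serum were crosslinked with formaldehyde at 1%, their chromatin was sheared to about 500 bp, and it was immunoprecipitated either with goat antibody to eGFP (1 library, 8391191 tags) or with goat IgG (1 library, 7988889 tags). The second library is labelled IgG control and also input DNA, and it is called IgG here. No other allele or agent is named, and there was no replicate of either library, so that every interval and p-value below covers counting error between these 2 libraries and not the spread between cultures. ChIP tags do not measure expression, so markers of ESCs could not be checked, and the deposited tags carry no allele, so the 2 parental chromosomes cannot be told apart.

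As background, this domain is a cluster in which several genes are expressed from the maternal chromosome. Its imprinting control region lies inside Kcnq1, is methylated on the maternal chromosome, and contains the promoter of Kcnq1ot1, a long noncoding RNA transcribed antisense to Kcnq1 from the unmethylated paternal chromosome. Transcription of Kcnq1ot1 is known to be required for silencing of the neighbouring genes on that chromosome. CTCF is a zinc-finger protein that binds a long, directional motif, and loops between CTCF sites form preferentially where the motifs point toward each other.

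The sequences that the comparison turns on are the motifs under the peaks on either side of Kcnq1ot1 and those in the stretch between them. Each is given 5′ to 3′ on the strand of the motif, with the 19 bases of the motif in capitals and 5 bases of mm9 on either side. The consensus of the matrix used was TGGCCACCAGGGGGCACTA, and a motif was accepted at a matrix p of 1e-05, a log2 score of 13.06. The first 3 sites lie in peaks on the Cd81 side, the next 3 in peaks on the Phlda2 side, and the last 2 are the highest scoring motifs of the stretch without peaks. The 6 sites in peaks are examples, and their strands do not stand for the flanks. With the best motif of each peak taken, the Cd81 side had 6 plus and 4 minus motifs and the Phlda2 side 3 and 4.
Intron of Tspan32, chr7:150194115-150194133, plus strand: aacatCGGCCACCAGGGGGCACCAaggtc
Upstream of Cd81, chr7:150230908-150230926, plus strand: tgtcaAGGCCAGAAGAGGGCATTAgatcc
Upstream of Trpm5, chr7:150280811-150280829, plus strand: aacatTAGCCACCAGAGGGCGCCAagatc
Upstream of Cdkn1c, chr7:150649981-150649999, minus strand: caagtCGGCCACCAGGGGGCAGCAtgaag
Intron of Slc22a18, chr7:150666602-150666620, plus strand: agggaGTTCCACCAGGGGGCGCTAcagtg
Upstream of Phlda2, chr7:150692816-150692834, minus strand: tatggAGGCCAGAAGAGGGCATCCaatcc
No peak, Kcnq1 intron, chr7:150363779-150363797, plus strand: cagatGCACCAGAAGAGGGTGGCAgatct
No peak, Kcnq1 intron, chr7:150546944-150546962, plus strand: tcgtgCTGCCACCAGGGGACATTGgccca

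CTCF peaks were found on both flanks of the domain and not in its centre. From 150340252 to 150649433, over 309182 bp, there was no deposited peak, and this stretch took up 56.2% of the domain and 85.3% of the 319.797 kb of Kcnq1. The next longest distance between neighbouring peaks of the domain was 36664 bp. The start of Kcnq1ot1 lay inside the stretch, 142200 bp from its end toward the Kcnq1 start and 166981 bp from its other end. The whole of Cdkn1c, chr7:150644255-150646955, also lay inside the stretch, close to that other end. Stretches of this kind were not rare in the deposited list: 1542 of 33736 distances between neighbouring peaks (4.57%) were at least as long, against a median of 24724 bp, and such stretches made up 40.9% of the genome by length.

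**Figure D1:**
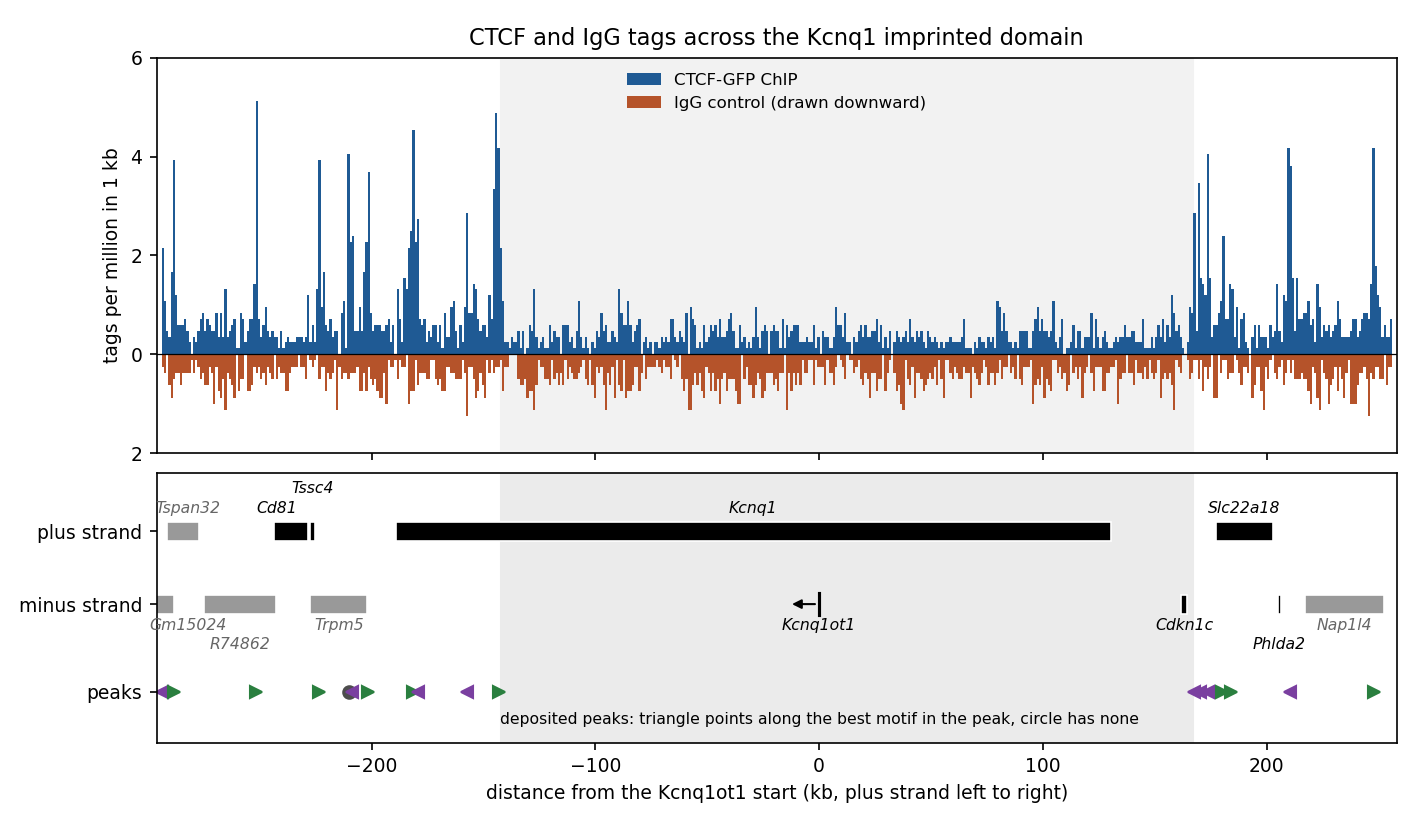
Tags in windows of 1 kb, scaled to library depth (CTCF upward, IgG downward), against the distance from the Kcnq1ot1 start in kb, above the genes (the 7 listed genes in black, others in grey) and the 18 deposited peaks. Shading marks the 309.182 kb without a deposited peak. CTCF tags rise above IgG tags at 11 peaks on the left and 7 on the right, whereas in the shaded stretch CTCF tags show no such rise.

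Over the whole domain 2874 CTCF and 1918 IgG tags were counted, a ratio of 1.43 after scaling to the same depth (exact 95% interval 1.35 to 1.51). The 18 peaks held 24.3% of these CTCF tags and 3.65% of these IgG tags. The domain was richer in peaks than chromosome 7 and the genome taken whole, with 3.27 peaks per 100 kb against 1.47 and 1.27. With a flank of 100 kb in place of 50 kb the count was 21 in place of 18, and with no flank 13. A difference from the sequence next to the domain was thus not shown. The control was also denser here, with 3.49 IgG tags per kb in the domain, 3.02 over the genome (ratio 1.16, 1.10 to 1.21) and 2.70 on chromosome 7. The part of this density in the peak calls was not tested.

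The stretch without peaks held 993 CTCF tags and 1073 IgG tags, a ratio of 0.881 (0.807 to 0.961), close to the 0.898 (0.897 to 0.899) of the genome outside all deposited peaks. On the flanks, outside the peaks, the ratio was 1.45 (1.33 to 1.59) from 1184 CTCF and 775 IgG tags. Since the stretch was delimited by the peaks themselves, this contrast is a description. In its 30 whole windows of 10 kb, CTCF tags numbered 16 to 53 (median 32) and IgG tags 18 to 50 (median 34.5), and CTCF exceeded IgG after scaling in 9 of the 30. A window of 1 kb was called raised when it had at least 10 CTCF tags and at least 3 times the depth-scaled larger of its IgG tags and 3. By this rule 38 of the 549 windows of the domain were called and 0 of the 308 in the stretch, beside 2.57% of all windows of the genome. Of words of 32 bases in the stretch, 96.1% occurred at a single place in mm9, and 96.5% did in the domain, so few positions there were out of reach of uniquely placed tags.

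Kcnq1ot1 is not among the genes of GENCODE M1. Its start was placed by its RefSeq promoter sequence, which matched chromosome 7 of mm9 at a single place, chr7:150482403-150482702, on the minus strand, with the start at 150482452. This is in intron 11 of the Kcnq1 transcript with 16 exons, chr7:150447282-150544614, an intron of 97.333 kb, at 189.293 kb from the start of Kcnq1. The 1 kb around the start had 33 CpG dinucleotides and a GC content of 53.4%, against 9.63 CpG per kb and 47.9% in the whole domain. The promoter is shown because it lies in the control region of the domain. Capitals mark CCAAT, the box bound by the trimeric factor NF-Y, searched as CCAAT on either strand.
Kcnq1ot1 promoter (RefSeq, 250 bases before to 50 after the start): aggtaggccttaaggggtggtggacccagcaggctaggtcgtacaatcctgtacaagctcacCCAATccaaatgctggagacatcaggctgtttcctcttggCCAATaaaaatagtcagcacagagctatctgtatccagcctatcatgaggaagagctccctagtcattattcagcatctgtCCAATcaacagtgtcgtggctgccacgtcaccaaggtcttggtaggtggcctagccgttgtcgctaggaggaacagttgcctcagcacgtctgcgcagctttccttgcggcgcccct
There were 3 such matches, all on the Kcnq1ot1 strand, beginning 188, 148 and 67 bases before the start. Of 32851 promoters of the same length in the RefSeq table, 37.4% held at least 1 match and 3.37% held 3 or more.

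No CTCF enrichment was detected at the Kcnq1ot1 start. Within 1 kb on either side lay 3 CTCF tags and 2 IgG tags, which at equal depth is a ratio of 1.43 (0.164 to 17.1). Both libraries were low there: 24.9% of all gene starts had no more CTCF tags and 22.4% no more IgG tags. The two-sided exact binomial test gave a p of 1, before and after Benjamini-Hochberg adjustment over all starts. The interval is wide at this depth. At the tag density of the stretch without peaks, this window would hold 6.43 CTCF and 6.94 IgG tags. The CTCF count at the start alone allows at most 8.77 tags (exact 95% Poisson interval). That bound makes no correction for the low IgG count there. The same window around the 18 summits of the domain held 23 to 64 CTCF tags (median 45) and 3 to 12 IgG tags. The summits were called from these tags, so their counts are given as a scale and not as a test. Every word of 32 bases in this window occurred at a single place in mm9.

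Wider windows around the start gave the same picture. Within 2 kb there were 8 CTCF and 7 IgG tags (ratio 1.09, 0.345 to 3.52), within 5 kb 24 and 23 (0.993, 0.537 to 1.84), and within 25 kb 168 and 158 (1.01, 0.810 to 1.27). In steps of 100 bp up to 3 kb from the start, no step held more than 3 CTCF tags or 4 IgG tags. The nearest summit was 142923 bp away, in intron 2 of Kcnq1. No motif reached p 1e-05 within 5 kb of the start. At the looser p of 1e-04 there were 9 within 5 kb and 1 within 1 kb, 568 bp upstream, shown because it is the match nearest to the start.
Kcnq1ot1 upstream, chr7:150483011-150483029, plus strand, log2 score 9.85: acttaTGAAAAGGAGGGGGCCCTGggtct
No tag of either library lay within 150 bp of it.

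**Figure D2:**
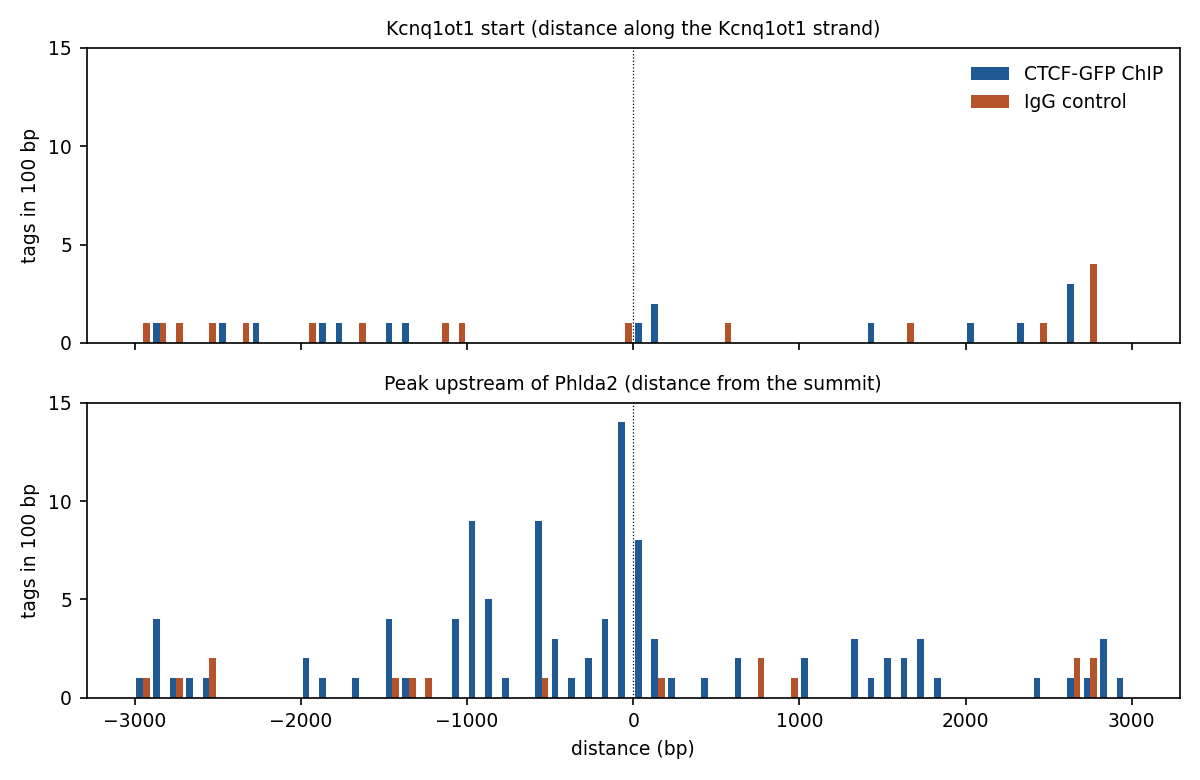
Tags in steps of 100 bp around the Kcnq1ot1 start (top) and around the summit of the peak upstream of Phlda2 (bottom), on the same scale, with CTCF in blue and IgG in orange. No step at the Kcnq1ot1 start exceeds 3 CTCF tags, while the highest step at the peak holds 14.

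None of the 7 starts had a summit within 1 kb, beside 6.46% of all gene starts, and 4 had a summit within 5 kb (Tssc4, Cdkn1c, Slc22a18 and Phlda2), beside 20.8% of all starts. By the fold rule given above for windows, 1 of the 7 starts was called, beside 12.6% of all starts and 15.5% of protein-coding starts. With the libraries exchanged in this rule, 0 of the 7 were called for IgG over CTCF, beside 1.38% of all starts. By the two-sided exact binomial test, 0 of the 7 passed an adjusted p of 0.05, beside 7.77% of all starts, and 1 had an unadjusted p under 0.05. The median start of the 7 held 8 CTCF and 3 IgG tags, and the median of all starts 6 and 5.

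**Figure D3:**
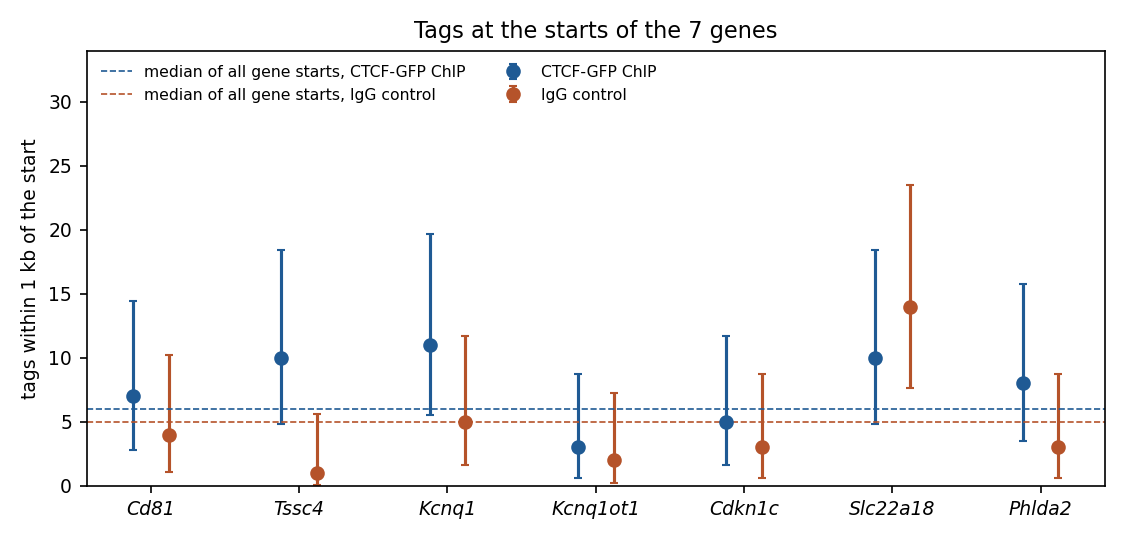
CTCF (blue) and IgG (orange) tags within 1 kb of the start of each of the 7 genes, in their order along the chromosome, with exact 95% Poisson intervals and the medians of all gene starts as dashed lines. CTCF counts run from 3 at Kcnq1ot1 to 11 at Kcnq1, and Tssc4 has 10 CTCF tags against 1 IgG tag.

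Kcnq1 encodes the pore-forming subunit of a voltage-gated potassium channel. At its start there were 11 CTCF and 5 IgG tags (ratio 2.09, 0.671 to 7.69), and the adjusted p of the exact binomial test was 0.682. Within 500 bp there were 0 CTCF tags and 1 IgG tag. Within 2 kb the ratio was 2.38 (1.004 to 6.25), an interval just above 1, with an adjusted p of 0.178 by the exact binomial test. The gene had 4 summits, 3 in intron 1 and 1 in intron 2, the first of them 7652 bp downstream of the start. Its body held 1347 CTCF and 1127 IgG tags (1.14, 1.05 to 1.23). All 4 peaks lay on the Kcnq1-start side of the stretch that holds Kcnq1ot1.

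Cdkn1c encodes the cyclin-dependent kinase inhibitor p57, a maternally expressed brake on proliferation. Its start held 5 CTCF and 3 IgG tags (1.59, 0.309 to 10.2; adjusted p of the exact binomial test 1), and within 500 bp 1 CTCF tag and 0 IgG tags. Within 2 kb the ratio was 1.75 (0.592 to 5.75). The peaks nearest to it were upstream, with summits at 2935 bp and 5605 bp. The first had a height of 7 tags, with 27 CTCF and 2 IgG tags, and carried the motif printed above, whose score of 25.4 was the second highest in the domain. The second had a height of 15, with 39 CTCF and 3 IgG tags.

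Slc22a18 encodes a transporter of the organic cation family, and it was the only member with more IgG than CTCF tags at its start, 14 against 10 (0.680, 0.270 to 1.65; adjusted p of the exact binomial test 0.892). Within 2 kb the ratio was 1.36 (0.653 to 2.91), and neither interval excluded 1. A summit of height 10 lay 3498 bp upstream of the start, and 2 lay in its introns, at 3004 and 6894 bp downstream, with heights of 11 and 9. The peak of the last was the narrowest of the domain at 526 bp, with 13 CTCF and 3 IgG tags (4.13, 1.13 to 22.6). The body of the gene held 135 CTCF and 76 IgG tags (1.69, 1.27 to 2.27).

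Phlda2 encodes a small pleckstrin homology domain protein that restrains growth of the placenta. At its start 8 CTCF and 3 IgG tags were counted (2.54, 0.609 to 14.9; adjusted p of the exact binomial test 0.689). Within 2 kb the ratio was 2.22 (1.09 to 4.80), an interval above 1, with an adjusted p of 0.104 by the same test. The summit 4384 bp upstream was the highest of the domain, at 22 tags, with 64 CTCF tags against 2 IgG tags in the peak (ratio 30.5, 8.10 to 257) and a score of 391 (on the MACS scale, where a higher score is a smaller p-value against IgG). Even so, 9.69% of all deposited summits were at least as high. This peak contained 4 motifs, 2 on each strand, and its summit lay 5 bp from the one printed above.

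On the other side of Kcnq1, Cd81 encodes a tetraspanin of the cell surface. Its start had 7 CTCF and 4 IgG tags (1.67, 0.424 to 7.76; adjusted p of the exact binomial test 0.959), and its body 38 and 41 tags (0.882, 0.552 to 1.41). Within 2 kb of the start the ratio was 1.13 (0.465 to 2.77). The nearest summit was 7791 bp upstream, in an intron of the noncoding gene R74862, with a height of 21 and 45 CTCF against 2 IgG tags (21.4, 5.60 to 182).

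Tssc4 was the member called by the fold rule, with 10 CTCF tags and 1 IgG tag within 1 kb of its start (ratio 9.52, 1.35 to 413; p = 0.0120 and adjusted p = 0.115, exact binomial test). The ratio was 1.90 (0.0991 to 112) within 500 bp and 4.05 (1.32 to 16.5) within 2 kb. The nearest summit, of height 16, lay 3975 bp downstream in an exon of Trpm5, which overlaps Tssc4 on the other strand. The ratio at the start thus rests on 11 tags.

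The other genes of the distal chromosome 7 imprinted cluster were read from a list of 14 (Ascl2, Tspan32, Trpm5, Nap1l4, Cars, Osbpl5, Dhcr7, Tnfrsf22, Tnfrsf23, Tnfrsf26, Th, Ins2, Igf2 and H19). By the fold rule 2 of the 14 starts were called, beside the 12.6% of all starts, and by the exact binomial test 1 passed. This was Trpm5, which encodes a calcium-activated cation channel of taste cells, with 51 CTCF and 8 IgG tags (6.07, 2.86 to 14.8; adjusted p = 2.07e-06 by the exact binomial test) and a summit 193 bp upstream. Osbpl5, the gene of an oxysterol-binding protein, had 15 and 3 tags (4.76, 1.35 to 25.7; adjusted p of the exact binomial test 0.0820). At the H19 start there were 1 CTCF and 3 IgG tags, and at the Igf2 start 4 and 5. Among the remaining genes of the domain, the noncoding Gm15024 had a summit 162 bp upstream of its start, with 48 CTCF and 9 IgG tags (5.08, 2.46 to 11.8; adjusted p = 2.00e-05 by the exact binomial test).

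The peaks of the domain were of ordinary height. Summits ranged from 7 to 22 tags (median 12), against 6 to 89 (median 13) for all deposited peaks, and 8 of the 18 exceeded the median of all. The 11 summits on the Cd81 side had heights of 7 to 21 (median 12) over 151.665 kb, and the 7 on the Phlda2 side 7 to 22 (median 11) over 81.49 kb, so the flanks overlapped in full. The median score, in contrast, was above that of the list, although some peaks of the domain scored below the median of the list. Scores ran from 62.6 to 618 with a median of 188, against a median of 117 for all peaks. Widths ran from 526 to 3451 bp with a median of 1066, against 832 bp.

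**Figure D4:**
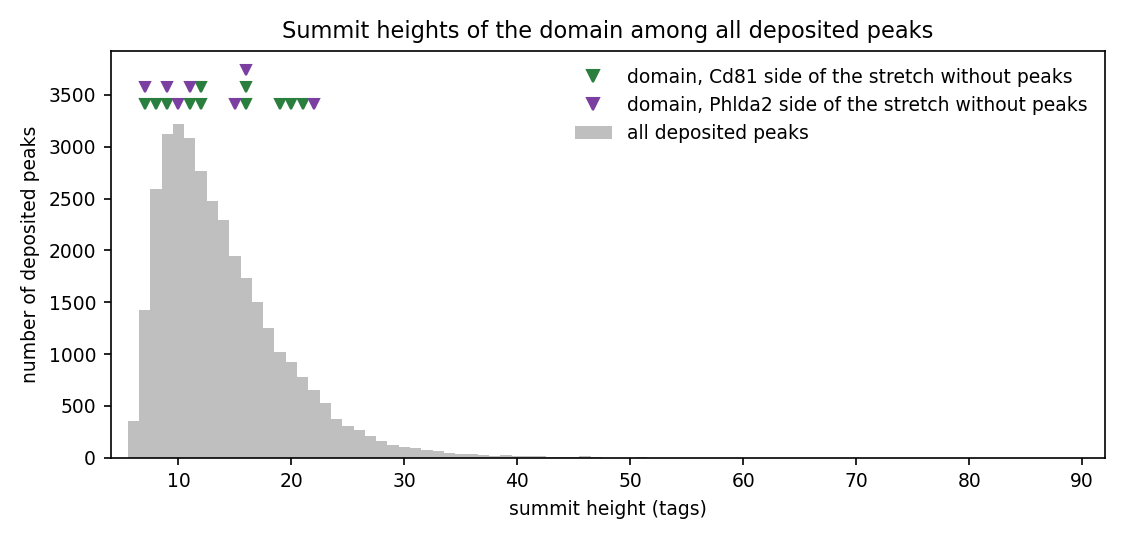
Number of deposited peaks (grey bars) against summit height in tags, with the 18 peaks of the domain as triangles, green for the 11 on the Cd81 side and purple for the 7 on the Phlda2 side. The triangles lie between 7 and 22 tags, within the bulk of the distribution.

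The peak at the edge of the stretch without peaks, chr7:150336801-150340251 in intron 2 of Kcnq1, was the widest and the highest scoring of the domain. It spanned 3451 bp with a score of 618, and held 119 CTCF and 7 IgG tags (16.2, 7.62 to 41.1). Only 0.0326% of all deposited peaks were as wide and 0.281% scored as high, while its summit of 16 tags was between the median and the upper quartile of 17 of all peaks. CTCF tags were spread along it, with no step of 100 bp holding more than 9. It held 4 motifs at p 1e-05, none of them within 150 bp of its summit.

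A CTCF motif at p 1e-05 lay within 150 bp of 12 of the 18 summits (66.7%, exact 95% binomial interval 41.0 to 86.7), beside 72.6% of all summits. Anywhere in the peak, 17 of the 18 had one, beside 81.2% of all peaks, and the exception was a peak in an intron of Trpm5 with 38 CTCF and 5 IgG tags (7.24, 2.84 to 23.6). Of the 12 motifs at summits 7 pointed along the plus strand and 5 along the minus strand. With the best motif of each peak taken, the Cd81 side had 6 plus and 4 minus motifs and the Phlda2 side 3 plus and 4 minus.

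Neighbouring motifs at summits made 11 pairs, of which 6 pointed the same way, 2 toward each other and 3 away from each other, beside 12262 (50.0%), 6117 and 6121 such pairs over the genome. With the best motif of each peak taken, there were 16 pairs, of which 7 pointed the same way, 4 toward each other and 5 away from each other.

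Motif matches were present in the stretch without peaks, although fewer per kb than on the flanks. The domain held 79 motifs at p 1e-05, 14.4 per 100 kb against 9.72 over the genome. Of these, 24 lay in peaks (30.4%, beside 12.5% of all motifs of the genome), 26 in the stretch and 29 elsewhere on the flanks. The density was 8.41 per 100 kb in the stretch and 22.0 in the remainder of the domain. Motifs in the stretch scored 13.2 to 17.2 (median 14.6), those on the flanks outside peaks 13.4 to 20.1 (median 14.9), and those in the peaks 13.6 to 25.8 (median 19.4). In the genome, 6.51% of the motifs with scores in the range of the stretch lay in peaks.

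The 26 motifs of the stretch had 14 CTCF and 23 IgG tags within 150 bp in total, and none had more than 3 CTCF tags. The 24 motifs in peaks had 380 and 27, with 2 to 33 CTCF tags each, and the 29 others 61 and 26, with up to 7 CTCF tags. As the peaks were called from the same tags, this difference is built into the split and is a description. The best motif of the stretch, printed above with a score of 17.2, had 0 CTCF tags and 1 IgG tag, and the second, at 16.8, had 1 of each. The strongest motif of the domain outside the peaks was in intron 1 of Kcnq1, with a score of 20.1 and 7 CTCF tags against 1 IgG tag. It lay within 150 bp of a 1 kb window called by the fold rule, with 14 CTCF and 2 IgG tags. It is shown beside the sites in peaks above, and not as a site without CTCF tags.
Unpeaked motif, chr7:150296882-150296900, minus strand: tacctTTGCCACCAGAGGGCTCTAaacac

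**Figure D5:**
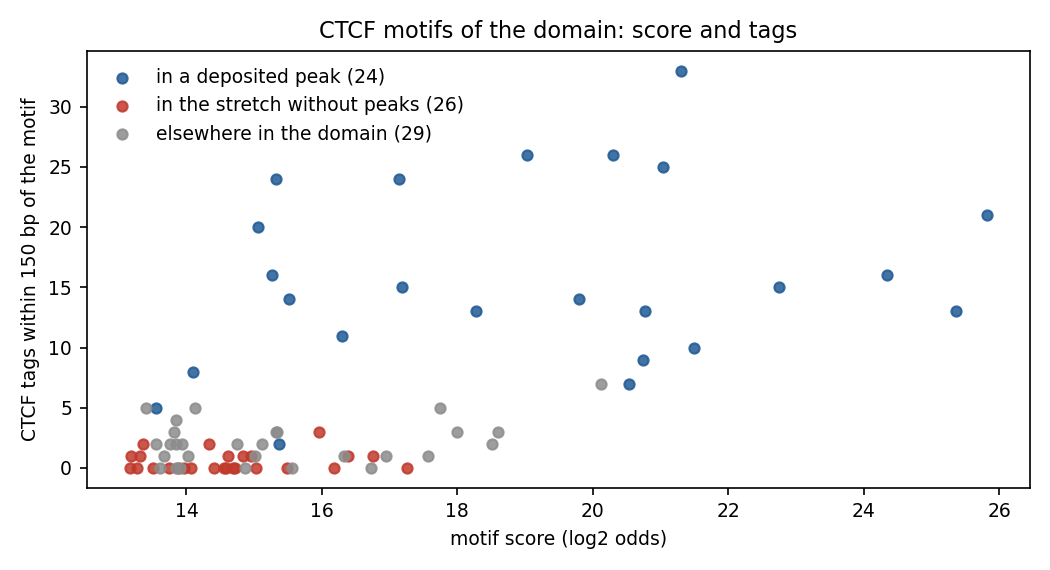
CTCF tags within 150 bp of each of the 79 motifs of the domain against the motif's log2 score, coloured by whether the motif lies in a deposited peak (24), in the stretch without peaks (26) or elsewhere (29). Motifs of the stretch have at most 3 CTCF tags, and those in peaks 2 to 33.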

How the data were processed

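Per the labels and methods, 1 library per antibody was sequenced on the Genome Analyzer II and placed on mm9. The aligner is not given in the sources used here. The authors deposited 1 line per aligned 35 bp tag, a count of 1 without normalization, and MACS 1.4 calls against the IgG library. The score of each peak was deposited as MACS gives it, the log10 of the p-value against IgG multiplied by -10. The signal of each summit was deposited as its pileup height, counted in tags. No position and strand was repeated in either library, so the deposited tags hold no duplicates.

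Each tag was shifted toward its fragment's centre by 93 bp (fragments measured 187 bp at the 1000 highest scoring peaks) and counted within 1 kb of the starts of GENCODE M1 genes with Python 3.11.15, numpy 2.4.6, scipy 1.17.1 and pysam 0.24.0 (figures: matplotlib 3.10.9). Ratios were scaled by library totals. Tests were two-sided exact binomial tests against the CTCF share of both totals, adjusted by Benjamini-Hochberg over 37274 starts. The motif matrix was built from 192 CTCF sequences of the study's motif sheet (pseudocount 1, background 0.29 for A or T, 0.21 for C or G). RefSeq promoters matched 5 of the 7 members. Named were the 7 genes, all genes of the domain, the 14 further genes and every peak of the domain. The members and lists were chosen with earlier results of these data known. The uniqueness check, the core word, the CCAAT search and the windows around summits were added after the data had been seen. Scripts were tested on simulated data. The sequence of 1 motif is not reported here.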

Additional observations from a re-analysis of the deposited data

Results flagged for a closer look

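In 7 windows of 1 kb of the domain that no deposited peak overlaps, CTCF tags stood above the IgG control by the fold rule. Of the 549 windows of the domain 38 were called, beside 2.57% of all windows of the genome, and the others touched a peak. None of the 7 lay in the stretch around Kcnq1ot1. Inside Trpm5, at 150260001, 10 CTCF and 3 IgG tags were counted, 384 bp from the nearest peak. Inside the same gene near its start, at 150279001, there were 13 and 3 tags, 34 bp from a peak. In intron 1 of Kcnq1, at 150297001, there were 14 and 2 tags, 2141 bp from a peak. The strongest motif outside the peaks, chr7:150296882-150296900 with a score of 20.1, lay within 150 bp of this window. The next window, at 150298001, had 10 and 3 tags. Upstream of Phlda2, at 150694001, there were 12 CTCF tags and 0 IgG tags, at 787 bp from the highest peak of the domain. With 0 IgG tags no ratio was observed there, and the lower limit of its exact interval was 2.65. The value of 3.81 used by the fold rule comes from a floor of 3 counts. In Nap1l4, there were 14 CTCF and 2 IgG tags at 150731001, 78 bp from a peak, and 13 and 3 tags at 150732001, 1078 bp from it. The same motif, chr7:150732053-150732071 with a score of 13.55, lay within 150 bp of both windows. It had 2 CTCF tags and 1 IgG tag within 150 bp. The windows were not tested one by one.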

How the results depend on the processing

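Across 15 results and 50 alternatives, 44 values stayed within the spread or on the same side of the threshold, 6 moved, and 0 called values reversed. The start of Tssc4, the member called by the fold rule, was counted among the 44. Its ratio within 500 bp was 1.90, below the 3-fold of that rule, so the call did not hold in this window. The starts of Kcnq1 and Cdkn1c, not called, each held 1 tag in all within 500 bp, an IgG tag at Kcnq1 and a CTCF tag at Cdkn1c. For Kcnq1 this gives a ratio of 0 in place of 2.09. For Cdkn1c no ratio was observed in place of 1.59, and the value of 0.317 comes from the floor of 3 counts. It shows no direction. The ratio over the domain was 1.59 when scaled by tags outside the deposited peaks and 1.12 with the peaks left out, in place of 1.43. The IgG density was 1.29 relative to chromosome 7, in place of 1.16. Only 22.2% of summits had a motif within 50 bp, in place of 66.7% within 150 bp. At a ratio of at least 5, 1909 gene starts were called in place of 4680, and 0 windows outside peaks in place of 7. No paired analysis was possible because there was 1 library per antibody. Depth limits the starts: at 3 to 11 CTCF tags each, the intervals are wide, and most of them allow a several-fold excess of CTCF tags. Their lower limits ran from 0.164 at Kcnq1ot1 to 1.35 at Tssc4, and their upper limits from 1.65 at Slc22a18 to 413 at Tssc4.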

Other observations

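Motifs of the domain fall into different words at their core. The most frequent word at bases 4 to 14 among all motifs of the genome was CCAGAAGAGGG, held by 28.2% of 258105 motifs, of which 8.86% lay in deposited peaks. In the domain 14 of 79 motifs (17.7%) held it. Of these, 5 lay in 3 peaks, with 2 to 33 CTCF tags within 150 bp (median 26), among them the sites printed in the report upstream of Cd81 and of Phlda2. Another 2 lay in the stretch around Kcnq1ot1 with 0 to 2 CTCF tags, and 7 elsewhere with 1 to 5. The scores of the groups overlapped, at 13.6 to 21.3 in peaks, 14.3 to 17.2 in the stretch and 13.8 to 18.6 elsewhere. As background, B2 SINE repeats of the mouse are known to carry CTCF motifs. No repeat annotation was used here, so these motifs are not assigned to repeats.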
